A study of Mus musculus with 18 samples.

Results

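Chromatin accessibility was examined at 10 genes for transcription factors that guide photoreceptor fate in the retina: Otx2, Crx, Prdm1, Neurod1, Thrb, Rxrg, Rorb, Onecut1, Onecut2 and Sall3. They are 10 of 21887 protein-coding genes for which a window was counted, namely the gene body with 2 kb on each side on mm10 (RefSeq gene table GRCm38.p6). The rule that chose them used their names and not their values, although earlier results of these data were known when they were chosen. The study overexpressed the zinc finger factors Ikzf1 and Ikzf4 in Muller glia and in fibroblasts, and 18 samples were listed. The retinal data came from 10x multiome ATAC libraries, in which transposase cuts open DNA in single nuclei. Each unique piece between a pair of cuts is a fragment, and a barcode stands for a nucleus. The control library was retina of GLAST-CRE ERT2; RosaYFP mice (C57BL/6), labelled Muller glia, with mCherry and tamoxifen at 14 days. In this line the glial GLAST promoter drives a tamoxifen-activated Cre. The Ikzf1/4 library carried the same tamoxifen note, and its other labels repeated its title in place of line, strain and tissue. The run names inside both fragment files carry 48h, and how this relates to the 14 days is not settled by the labels. Each condition was 1 library, so no test was made between them and all intervals cover counting error only. The second system was mouse embryonic fibroblasts (R26-M2rtTA, C57BL/6) in which 48 h of doxycycline switched on lentiviral Brn2 and Myt1l. In a second group Ikzf1 and Ikzf4 were added to this pair, and each group had 3 RNA libraries.

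Rods, cones and bipolar cells arise from retinal progenitors that switch on Otx2. Otx2 activates Crx, and both homeodomain factors bind promoters of photoreceptor genes. Neurod1 and Rorb act in photoreceptor development, and Prdm1 restrains the bipolar program in young photoreceptors. Thrb and Rxrg encode nuclear receptors that pattern cone opsins, Onecut1 and Onecut2 act in progenitors of cones and horizontal cells, and Sall3 is a zinc finger factor of cones and some inner retinal neurons.

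The control library held 1955 barcodes with 3000 to 90000 fragments (median 6248) and the Ikzf1/4 library 745 (median 10682), and 3 barcodes occurred in both. Cells were clustered with the 10 genes left out and named from marker windows. Against the label, Muller glia-like cells were only 32.9% of 1884 control cells and 17.6% of 693 Ikzf1/4 cells. Cluster 5, which Gfap of the astrocyte list led, supplied 97 of the 619 control and 63 of the 122 Ikzf1/4 cells of this class, although all 10 Muller glia markers were high in it. Rod-like cells were 4.88% and 19.2%, cone-like cells 13.9% and 19.0%, and bipolar-like cells 34.8% and 38.1%. Microglia-like cells were 6.00% and 2.60%, and amacrine-like cells 3.66% and 0.433%, the latter only 3 cells in the Ikzf1/4 library. All 10 rod markers were above 1.5 times the other cells in the rod-like cluster, and all 10 cone markers in the cone-like cluster. In the bipolar-like clusters 0, 3 and 8, only 6, 8 and 5 of 10 bipolar markers were. None of the 10 leading windows of clusters 0 and 8 was a bipolar marker. In the microglia-like cluster 8 of 8 markers were high, and in the amacrine-like cluster 7 of 8. The Muller glia-like cells also held endothelial marker windows, at a summed level of 376 FPM (fragments in the windows per 1000000 fragments of the class) against 58.6 to 160 in the 5 other classes, and the part of these in the glial values was not tested.

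The promoters of Crx and Neurod1 are shown because they were open in photoreceptors and near 0 in glia, and both starts of Thrb and Rxrg because they were open in different cells. They are the 250 bases before a start listed in RefSeq (GRCm38.p6), read on the gene's strand, and 8 of the 10 genes had such starts. Capitals mark TAATCC, the core letters bound by Otx2 and Crx, or its reverse complement GGATTA.
Crx, chr7:15879956-15880205, minus strand: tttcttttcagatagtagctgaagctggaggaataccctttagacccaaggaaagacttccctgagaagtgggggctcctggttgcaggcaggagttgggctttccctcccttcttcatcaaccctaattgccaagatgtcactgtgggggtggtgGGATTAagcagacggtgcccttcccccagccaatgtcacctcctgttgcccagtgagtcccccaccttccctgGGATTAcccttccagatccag
Neurod1, chr2:79456637-79456886, minus strand: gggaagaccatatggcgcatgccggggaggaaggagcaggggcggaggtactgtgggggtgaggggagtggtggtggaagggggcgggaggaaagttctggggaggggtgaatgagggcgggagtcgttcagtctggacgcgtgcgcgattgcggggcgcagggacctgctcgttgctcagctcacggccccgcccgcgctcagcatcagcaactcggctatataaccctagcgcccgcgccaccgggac
Thrb first start, chr14:17660710-17660959, plus strand: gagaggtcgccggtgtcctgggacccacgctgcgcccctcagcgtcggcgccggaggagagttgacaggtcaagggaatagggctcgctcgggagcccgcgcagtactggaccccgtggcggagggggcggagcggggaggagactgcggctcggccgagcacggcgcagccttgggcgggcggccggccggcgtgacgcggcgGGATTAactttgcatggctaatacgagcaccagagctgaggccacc
Thrb second start, chr14:17981394-17981643, plus strand: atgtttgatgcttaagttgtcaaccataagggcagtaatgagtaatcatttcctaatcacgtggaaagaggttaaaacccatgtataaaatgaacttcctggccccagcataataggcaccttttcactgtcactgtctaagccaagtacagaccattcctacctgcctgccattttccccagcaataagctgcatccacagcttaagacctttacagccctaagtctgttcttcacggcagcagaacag
Rxrg first start, chr1:167598112-167598361, plus strand: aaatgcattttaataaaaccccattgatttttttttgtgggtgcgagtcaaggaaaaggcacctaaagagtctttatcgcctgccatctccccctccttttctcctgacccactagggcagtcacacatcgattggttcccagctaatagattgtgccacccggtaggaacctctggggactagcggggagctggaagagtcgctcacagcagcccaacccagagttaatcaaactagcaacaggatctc
Rxrg second start, chr1:167618015-167618264, plus strand: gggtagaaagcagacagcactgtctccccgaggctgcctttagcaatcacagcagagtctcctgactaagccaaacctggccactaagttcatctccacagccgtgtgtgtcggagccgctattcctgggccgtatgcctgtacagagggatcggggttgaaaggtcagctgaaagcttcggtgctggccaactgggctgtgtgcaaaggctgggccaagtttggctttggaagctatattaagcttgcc
The Crx promoter held the letters 2 times, beginning 94 and 21 bases before the start, and the first Thrb promoter held them once, at 46 bases. Over the 14 starts listed for the 8 genes, 3 held them (21.4%; genes Crx, Thrb and Otx2), against 5.82% of 21263 listed starts of coding genes. The letters AGGTCA, a half-site of nuclear receptors, were in 2 of the 14, the first Thrb and the second Rxrg promoter, against 12.8% of all listed starts. TGGGAA, the core of Ikaros sites, was in 3 of the 14, those of Prdm1, Rxrg and Rorb, against 20.9%. CAGATG, an E-box of the Neurod1 type, was in 1 of the 14 (7.14%) against 12.4%. All 4 motifs were searched on both strands, and no matches overlapped. A match describes the letters and is not a binding site, and no match says only that the letters are not in these bases.

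The 3 genes at the head of the photoreceptor program were open in rod-like, cone-like and bipolar-like cells and low in glia. Crx lies at chr7:15865947-15879955, Neurod1 at chr2:79452637-79456636 and Otx2 at chr14:48656781-48667644, all on the minus strand (GRCm38.p6). Levels are FPM in the window, with 95% Poisson intervals, both libraries together unless stated. Crx was at 185 (166 to 205) in rod-like, 147 (135 to 159) in cone-like and 82.6 (76.5 to 89.0) in bipolar-like cells, and at 20.1 in Muller glia-like and 5.15 in microglia-like cells. These 3 intervals did not overlap. The order was the same in both libraries, but the rod-like to cone-like ratio in control, at 1.21 (0.97 to 1.51), held 1. Neurod1, a basic helix-loop-helix factor, was at 128 (113 to 145) in rod-like, 91.1 (81.9 to 101) in cone-like and 64.5 (59.2 to 70.3) in bipolar-like cells. It was at 20.2 in amacrine-like, 4.89 in Muller glia-like and 4.41 in microglia-like cells. Otx2 was at 69.0 (57.8 to 81.8) in rod-like, 53.6 (48.7 to 58.9) in bipolar-like and 47.1 (40.5 to 54.4) in cone-like cells, and at 7.24 in Muller glia-like cells. Its cone-like and bipolar-like levels did not differ beyond counting error (ratio 0.88, 0.74 to 1.04). Per kb of window in rod-like cells, Neurod1 stood highest of the 10 at 16.0 FPM, followed by Crx at 10.3 and Otx2 at 4.64. These were also the shortest windows of the 10, at 8, 18.0 and 14.9 kb. By window total in rod-like cells Thrb, at 263, Prdm1, at 171, and Rorb, at 162, stood above Neurod1. Library by library, Crx was at 179 in control and 188 in Ikzf1/4 rod-like cells, at 148 and 145 in cone-like cells and at 22.0 and 14.3 in Muller glia-like cells. Neurod1 was at 117 and 133 in rod-like, 79.5 and 107 in cone-like and 4.93 and 4.78 in Muller glia-like cells. Otx2 was at 62.6 and 71.8 in rod-like, 40.7 and 55.8 in cone-like and 8.04 and 4.78 in Muller glia-like cells. Different clusters filled the Muller glia-like class in the libraries, as given above for cluster 5. Crx was at 26.8 in control and 15.8 in Ikzf1/4 cells of cluster 1, and at 14.2 and 13.02 in cluster 5. In each library glia stood below both photoreceptor classes for all 3 genes.

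Within the windows, the 4 busiest bins of 500 bp were taken for each gene over all cells, at least 3 bins apart, so 40 in all. Bin levels count fragments with an end in the bin, in FPM, and kb give the distance of the bin's centre from the first listed start. Otx2 had different busy bins in bipolar-like cells and in photoreceptors. The bin at its first start was at 9.46 in bipolar-like, 4.15 in rod-like and 2.04 in cone-like cells. The rod-like and cone-like values each rest on 4 fragments in either library. The bin 1.39 kb before that start was at 14.0 in rod-like, 8.65 in cone-like and 4.37 in bipolar-like cells. With 1 kb on each side of the first start, the order differed and the intervals overlapped. Rod-like cells were then at 16.1 (10.9 to 22.8), bipolar-like cells at 13.6 (11.2 to 16.3) and cone-like cells at 11.5 (8.35 to 15.3). The long non-coding gene Otx2os1 overlaps the end of the window, so fragments there cannot be assigned to either gene. Crx had 3 bins of like height in rod-like cells, 34.8 at the start, 35.3 at 15.8 kb after it and 28.5 at 1.74 kb before it. The bin at 15.8 kb lies in the flank just beyond the gene's far end. Only the bin 1.74 kb before the start was open in Muller glia-like cells, at 14.7 (11.5 to 18.4), where the start bin was at 0.391 and the far bin at 0.782. Cluster 1 carried this value, at 22.3 in control and 14.4 in Ikzf1/4 cells, and cluster 5 had 4 and 0 fragments. The bin held 75 fragments in Muller glia-like cells, which had 103 in the whole Crx window. Neurod1 had one dominant bin at its start, at 62.3 in rod-like, 48.9 in cone-like, 35.1 in bipolar-like and 14.0 in amacrine-like cells, and at 0.391 in Muller glia-like cells.

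**Figure D1:**
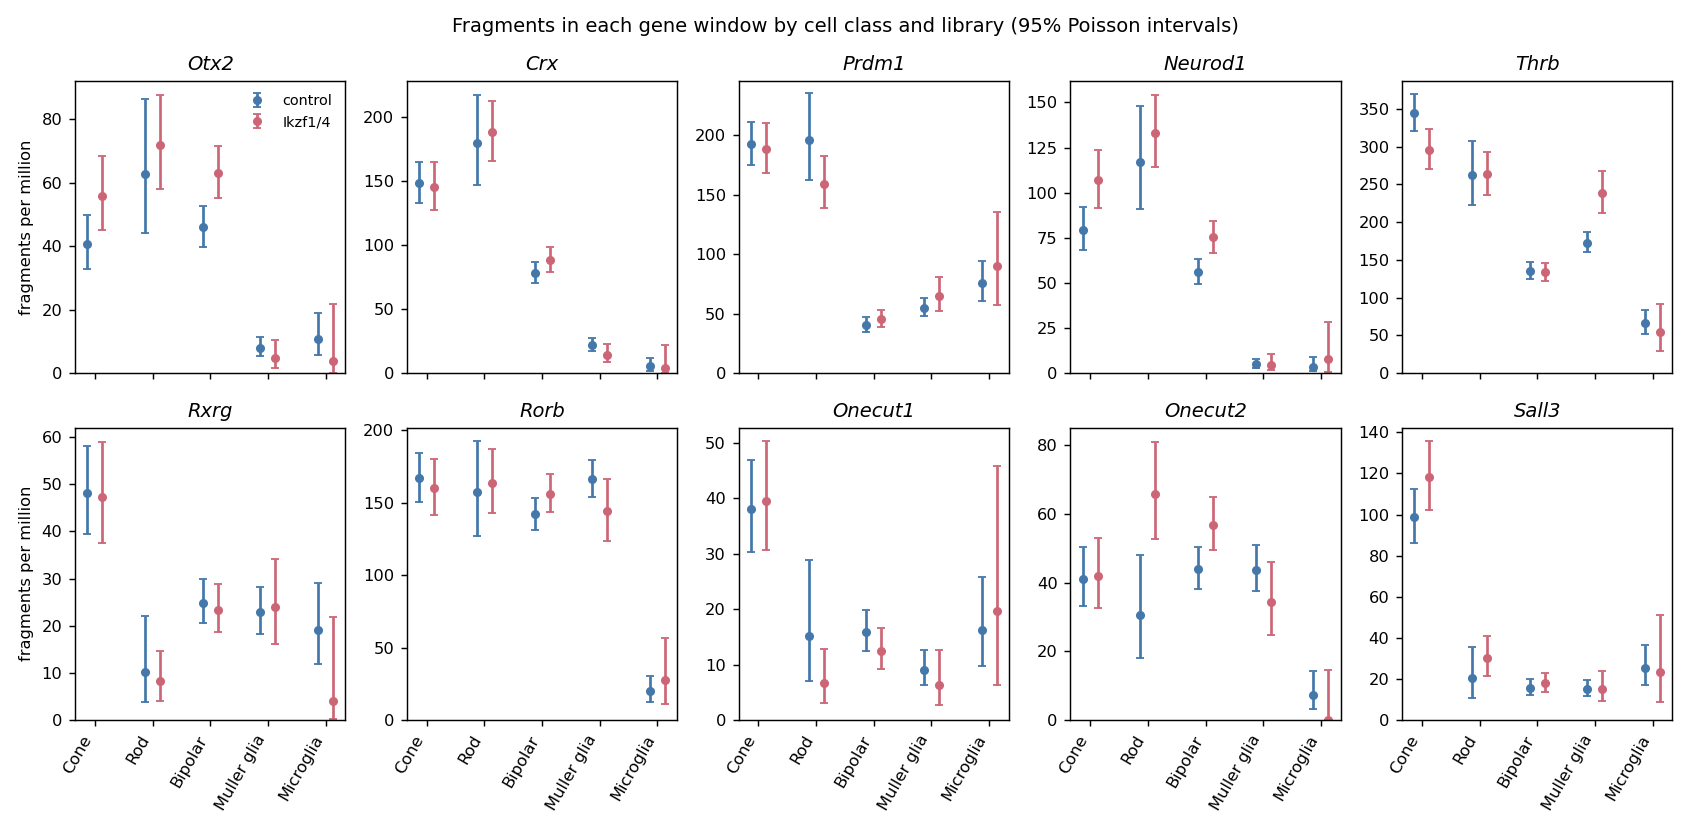
FPM in the window of each gene (vertical axis, from 0) in 5 cell classes, with control in blue and Ikzf1/4 in red and bars for 95% Poisson intervals. Amacrine-like cells are left out because the Ikzf1/4 library held 3. Crx and Neurod1 step down from rod to cone to bipolar in both libraries, and Sall3 stands apart in cones at 98.6 and 118.

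Prdm1, the repressor known as Blimp1, was open in both photoreceptor classes. The gene lies at chr10:44437174-44528558 on the minus strand, and its listed start, at 44458748, is inside it, so the window holds sequence before that start. Its window was at 191 (177 to 205) in cone-like and 171 (153 to 190) in rod-like cells, which did not differ beyond counting error (ratio 1.12, 0.98 to 1.28). By library it was at 192 and 188 in cone-like cells and at 196 and 159 in rod-like cells, so that rod-like cells were highest in control and cone-like cells in the Ikzf1/4 library. Bipolar-like cells were at 42.9 (38.6 to 47.7), and the cone-like level was 4.44 times theirs (3.91 to 5.05). Microglia-like cells were at 78.7, and their start bin, at 18.4, was as open as that of cone-like cells, at 19.1. Immune cells are known to use Prdm1. The bin 6.18 kb before the start was at 22.8 (16.6 to 30.6) in rod-like and 20.6 (16.4 to 25.6) in cone-like cells, and at 1.09 in bipolar-like and 0.978 in Muller glia-like cells. It held no fragment in microglia-like cells, which allows up to 2.21. The bin 19.7 kb before the start showed the same split, at 11.96 in cone-like, 8.30 in rod-like, 1.21 in bipolar-like and 0.391 in Muller glia-like cells. The busiest bin lay 70.7 kb before the listed start, just outside the gene's outer end, and was at 9.58 in bipolar-like, 13.1 in Muller glia-like, 14.0 in microglia-like, 29.3 in cone-like and 31.6 in rod-like cells. Amacrine-like cells had 3 fragments there.

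Thrb, Rxrg, Sall3 and Onecut1 were more open in cone-like than in rod-like cells. Thrb, at chr14:17659225-18040097 on the plus strand, encodes the thyroid hormone receptor needed for M cones. Its window of 385 kb was at 324 (306 to 342) in cone-like, 263 (241 to 287) in rod-like, 189 (177 to 201) in Muller glia-like and 135 (127 to 143) in bipolar-like cells. The cone-like level was 1.23 times the rod-like one (1.11 to 1.37), at 1.31 (1.104 to 1.57) in control and 1.12 (0.98 to 1.29) in the Ikzf1/4 library, where the interval held 1. The 2 listed starts behaved differently, counted with 1 kb on each side. The first, which the protein-coding gene LOC115488350 overlaps, was most open in rod-like cells, at 69.5 (58.2 to 82.3) against 44.0 (37.7 to 51.1) in cone-like cells. The second, 321 kb inside the gene, was at 8.65 (5.99 to 12.1) in cone-like cells from 34 fragments, against 2.08 in rod-like, 1.09 in bipolar-like and 0.196 in Muller glia-like cells. Its promoter, printed above, held 44.0% G and C against 71.6% for the first. The bin 303 kb after the first start, which lies before the second, was at 17.1 (13.2 to 21.7) in cone-like, 2.59 in rod-like and 0.587 in Muller glia-like cells. The bin at 257 kb did the reverse, at 13.9 (10.8 to 17.5) in Muller glia-like, 1.27 in cone-like and 0 in rod-like cells (0 allows up to 1.56). The window total of Thrb thus joined sites open in different cells.

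Rxrg, a retinoid X receptor of cones at chr1:167598362-167639623 on the plus strand, was at 47.8 (41.3 to 55.2) in cone-like cells and at 8.82 (5.14 to 14.1) in rod-like cells, a ratio of 5.43 (3.30 to 9.51). It was at 48.2 and 47.4 in control and Ikzf1/4 cone-like cells, and at 10.2 and 8.23 in rod-like cells, on 6 and 11 fragments. Amacrine-like cells, at 38.8 (25.1 to 57.2), overlapped cone-like cells. Here too the starts split the cells. The first start was at 18.8 (14.8 to 23.6) in cone-like, 9.22 in bipolar-like and 1.956 in Muller glia-like cells. The second, 19.9 kb on, was at 8.61 (6.25 to 11.6) in Muller glia-like and 10.9 in amacrine-like cells, and at 2.29 in cone-like cells. A bin 1.75 kb after the first start was at 5.34 in cone-like cells, 0.243 in bipolar-like and 0.196 in Muller glia-like cells. It held no fragment in rod-like cells, which allows up to 1.56, in microglia-like cells (up to 2.21) or in amacrine-like cells (up to 4.65). Sall3 was at 107 (96.9 to 118) in cone-like cells, 3.96 times (2.97 to 5.39) its rod-like level of 27.0 and 7.10 times (5.55 to 9.17) its Muller glia-like level of 15.1. Its busiest bin lay beside the long non-coding gene Gm27239, at the gene end of higher coordinate, and was at 40.7 in cone-like and 19.2 in rod-like cells, while a bin 5.78 kb inside was at 8.91 in cone-like and 0 in rod-like cells, with the same limit. By library, Sall3 was at 98.6 and 118 in cone-like cells. Onecut1 was at 38.7 (32.8 to 45.3) in cone-like and 9.34 in rod-like cells, a ratio of 4.14 (2.53 to 7.18). This ratio was 2.49 (1.255 to 5.64) in control and 5.88 (2.92 to 13.4) in the Ikzf1/4 library, on 9 rod-like fragments in each. Amacrine-like cells were close to the cone-like level, at 34.1 (21.4 to 51.6), and non-coding genes overlap its window.

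Rorb and Onecut2 differed less between the neural and glial classes by window total, and both were lowest in microglia-like cells. Rorb, a nuclear receptor that acts before Nrl in rods, is at chr19:18930609-19111196 on the minus strand. Its level lay between 149 and 164 in the 5 neural and glial classes and at 21.3 in microglia-like cells. One inner bin did differ: at 112 kb after the first start, rod-like cells were at 18.2 (12.6 to 25.3), bipolar-like cells at 6.79, cone-like cells at 1.02 and Muller glia-like cells at 0.391. A bin 2.34 kb after the start was highest in cone-like cells, at 11.2 against 2.59 in rod-like cells. Onecut2 was at 55.0 (45.0 to 66.5) in rod-like, 49.7 in bipolar-like, 41.5 in cone-like, 41.5 in Muller glia-like and 5.88 in microglia-like cells. The rod-like level was 1.33 times the cone-like one (1.03 to 1.70), and this rested on the Ikzf1/4 library. There the ratio was 1.57 (1.13 to 2.18), while in control it was 0.74 (0.42 to 1.24), on 18 rod-like fragments. The rod-like to bipolar-like ratio held 1 in both, at 1.16 (0.89 to 1.49) in the Ikzf1/4 library and 0.69 (0.40 to 1.12) in control. Its bin 5.75 kb inside the gene end of lower coordinate was at 17.6 in rod-like, 3.52 in bipolar-like, 2.29 in cone-like and 0.978 in Muller glia-like cells. Its bin at 22.2 kb was at 7.43 in Muller glia-like, 0.519 in rod-like, 0.364 in bipolar-like and 0.255 in cone-like cells.

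**Figure D2:**
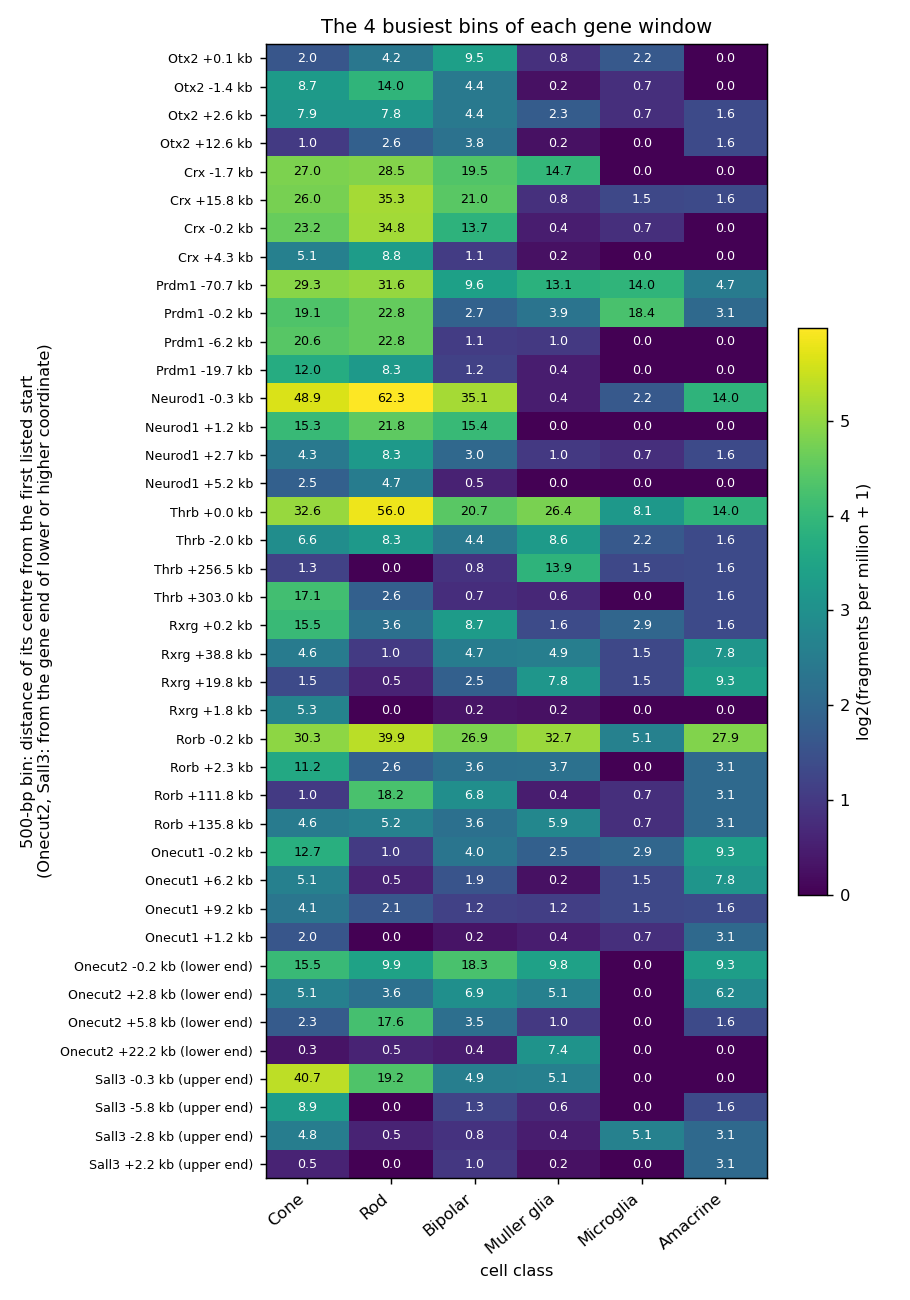
Levels in FPM (numbers) in the 4 busiest 500-bp bins of each gene (rows) across 6 cell classes (columns), both libraries together, with colour on a log2 scale. Prdm1 at -6.2 kb is bright in cone and rod only, Thrb at +303.0 kb in cone, Thrb at +256.5 kb in Muller glia and Rorb at +111.8 kb in rod.

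**Figure D3:**
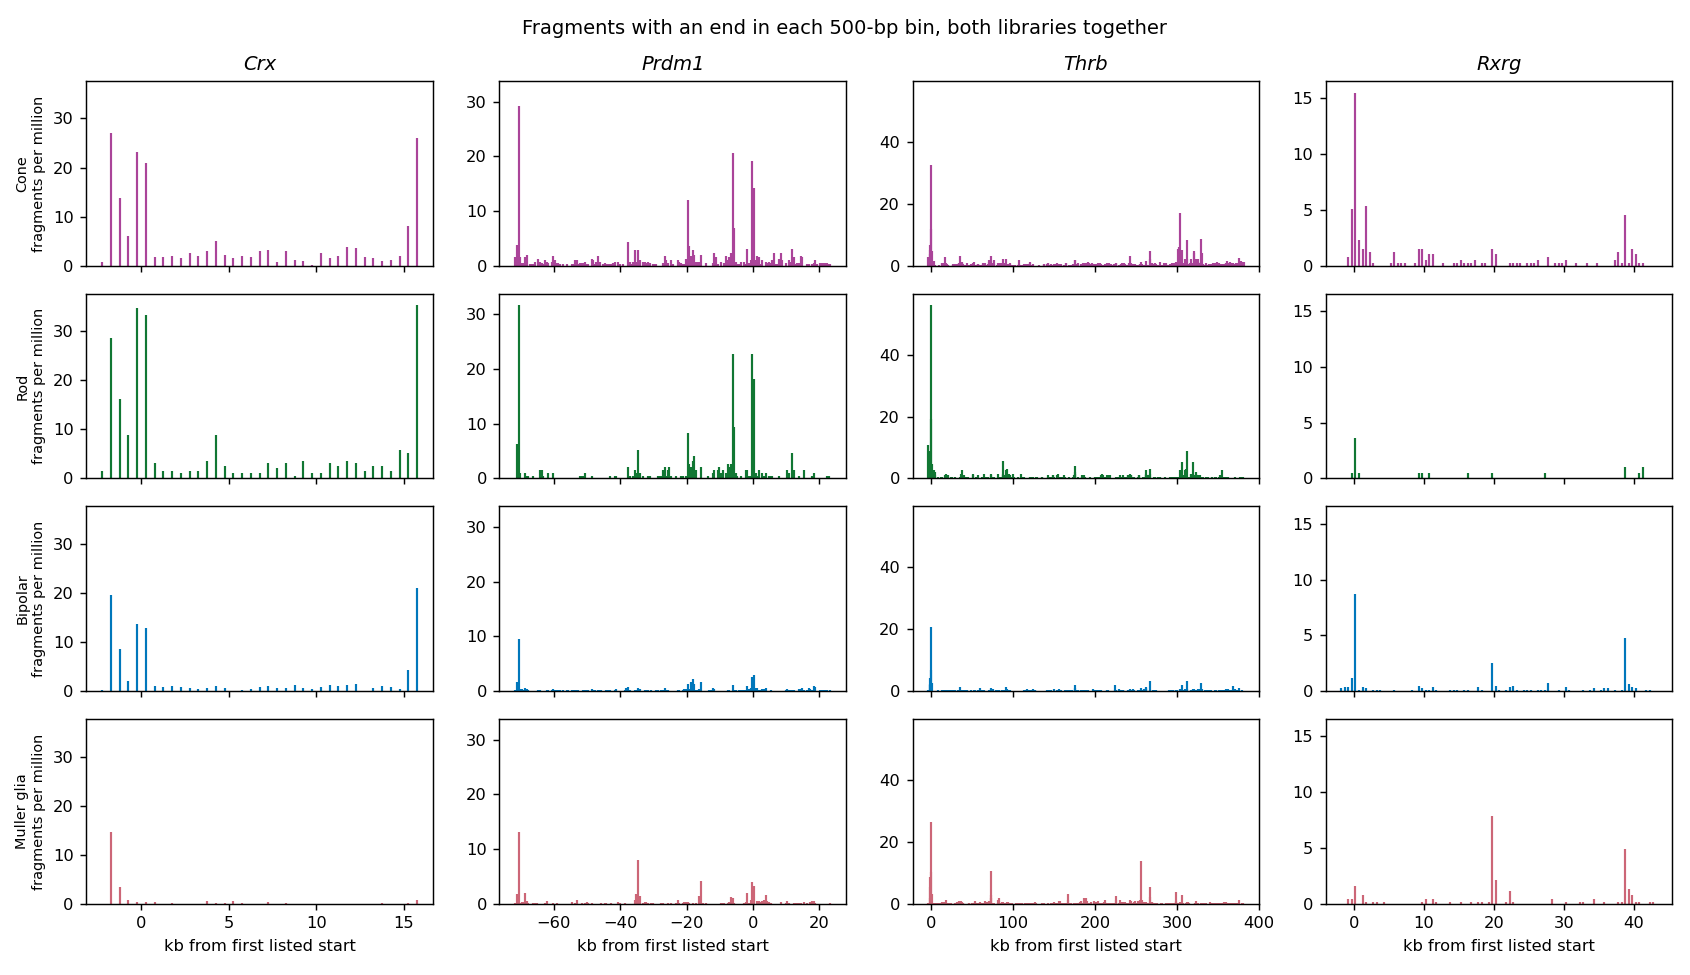
FPM of fragments with an end in each 500-bp bin (vertical lines) along the windows of 4 genes, by distance in kb from the first listed start, in 4 cell classes. Each column has one vertical scale. In Muller glia the tallest Crx bin is the one 1.74 kb before the start, at 14.7, carried by cluster 1.

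Among the bins that told classes apart, those of Prdm1, Thrb and Rorb given here were open in their leading classes in both libraries. Others had few fragments in control. The Onecut2 bin most open in rod-like cells was at 6.77 in control and 22.4 in Ikzf1/4 rod-like cells, on 4 and 30 fragments. The Otx2 bin before the first start was at 8.46 and 16.5 in rod-like cells, on 5 and 22 fragments. The Prdm1 bin at 6.18 kb was at 23.4 in control and 16.8 in Ikzf1/4 cone-like cells, and at 28.8 and 20.2 in rod-like cells. The Thrb bin at 257 kb was at 13.2 and 15.9 in Muller glia-like cells. By cluster it was at 12.8 and 21.6 in cluster 1 and at 20.2 and 9.30 in cluster 5. The intervals of both cluster ratios held 1. The Rorb bin at 112 kb was at 18.6 and 18.0 in rod-like cells.

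The windows most like each gene were ranked by Pearson correlation over 11 class-by-library values on the log2(FPM + 1) scale, among 14696 windows. These points share libraries and depth, so the correlations are a description. Crx was closest to Lrit2 (0.993), Cplx4 and Abhd14b, and Neurod1 to Mrps18c (0.990), Gm867 and Zbtb12. Otx2 was closest to Mkrn1 (0.982), Myo10 and Klc3, and Prdm1 to Cpt1a (0.956), Baz2b and Mbnl2. Thrb was closest to Clasp1 (0.969), Pard3 and Daam1, and Rxrg to Scn10a (0.970), Cpa6 and Prickle2. Among the 10 genes themselves, Otx2 with Neurod1 (0.9302) and Otx2 with Crx (0.913) were the closest pairs.

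The Ikzf1/4 library was then set against the control library over all barcodes in range. Median fragment length was 108 bp in control and 139 bp in the Ikzf1/4 library, 53.1% and 45.7% of fragments were under 120 bp, and a fragment had 1.964 and 4.59 read pairs on average. Neurod1 went from 37.7 to 70.8 FPM, a ratio of 1.88 (1.68 to 2.10), and Otx2 from 27.6 to 47.9, a ratio of 1.73 (1.51 to 1.99). Crx went from 62.2 to 91.7, a ratio of 1.47 (1.34 to 1.62). Over the whole library the Crx ratio was 1.93 for the gene body alone and 1.87 for the start with 1 kb on each side. The bin 1.74 kb before the start and the busy bin beyond the gene's far end both lie outside these 2 counts. From fragments under 120 bp alone the ratios were 1.90 for Neurod1, 1.62 for Otx2 and 1.34 for Crx, and the part of the read pairs per fragment was not tested. Over all fragments 2 of the 10 genes were past 1.5 in the higher direction, where 2.84% of 17895 windows with at least 50 fragments were, and 0 were past it in the lower direction, where 5.85% were. The other genes were closer to 1, at 1.34 (1.16 to 1.55) for Sall3, 1.23 for Onecut2, 1.14 for Prdm1, 1.10 for Thrb, 1.004 for Rorb, 0.92 for Rxrg and 0.90 for Onecut1. The median of all windows was 1.07. That of windows under 20 kb, such as Neurod1, Otx2 and Crx, was 1.11, and that of windows of 300 kb or more, such as Thrb, was 0.874. Intervals lay above 1 for 7 of the 10 genes and below 1 for 0, where 34.5% and 14.0% of all windows did. In a whole library, more cells of a class and a more open gene per cell cannot be told apart, and rod-like cells were 19.2% of cells against 4.88%. The summed level of the rod markers was 294 FPM in control and 519 in the Ikzf1/4 library, with 10 of 10 higher, and that of the bipolar markers 637 and 913, with 8 of 10 higher. The cone markers went the other way, at 256 and 235 with 2 of 10 higher, although cone-like cells were 13.9% and 19.0% of cells. The Muller glia markers were at 473 and 378, with 1 of 10 higher.

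At the control library's class shares, 0 of 10 ratios were past 1.5 in either direction, where 2.25% of 17568 windows were higher and 4.05% lower. Crx was at 0.997 (0.903 to 1.10), Otx2 at 1.196 (1.04 to 1.38) and Neurod1 at 1.30 (1.15 to 1.48). Sall3 was at 1.18 and Onecut2 at 1.13. The remaining 5 lay between 0.86 for Rxrg and 1.09 for Thrb. These ratios equalise the classes and not the clusters within them, which the libraries filled differently. The amacrine-like level of the Ikzf1/4 library in them rests on 3 cells.

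**Figure D4:**
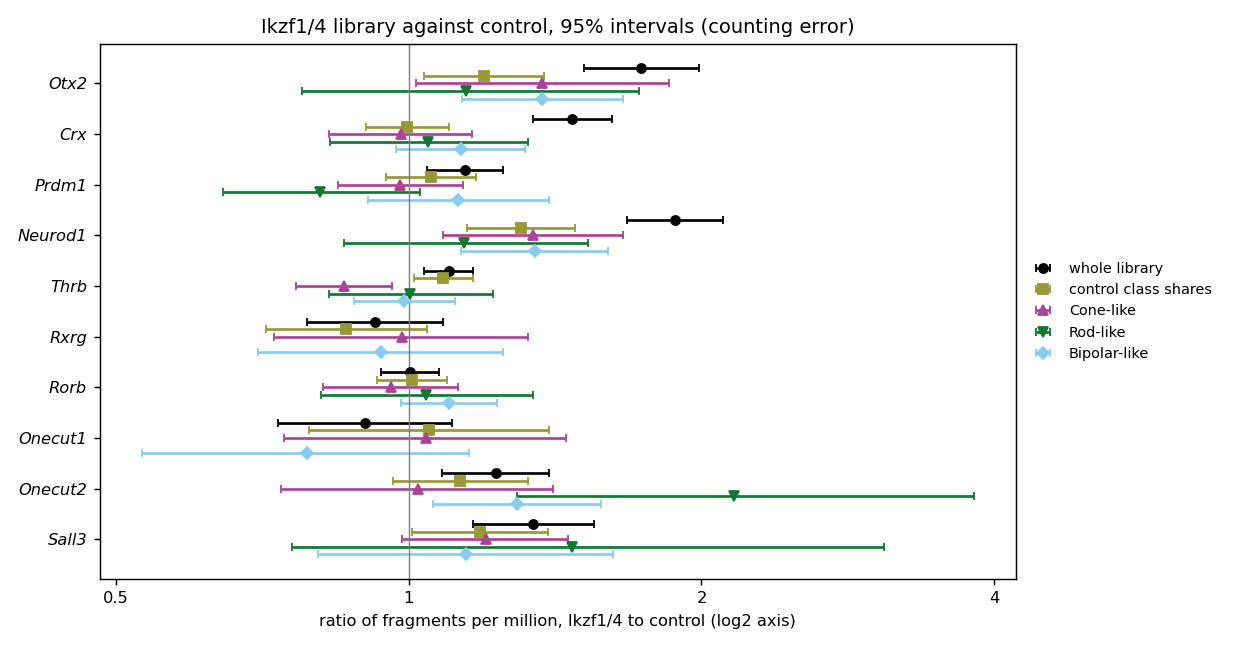
Ratio of FPM in the Ikzf1/4 library to control (log2 axis) for each gene over the whole library, at control class shares, and within cone-like, rod-like and bipolar-like cells with at least 50 fragments. Bars are 95% intervals for counting error. The whole-library points of Otx2, Crx and Neurod1 lie to the right of their points at control class shares.

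Within cone-like cells none of the 10 genes was past 1.5 in either direction, where 4.82% of windows were higher and 4.01% lower. Neurod1 went from 79.5 to 107, a ratio of 1.34 (1.09 to 1.66), and Otx2 from 40.7 to 55.8, a ratio of 1.37 (1.02 to 1.85). Among all windows in these cells 12.3% had an interval above 1, and among windows under 20 kb 13.8% did. Thrb went from 345 to 296 in cone-like cells, a ratio of 0.86 (0.77 to 0.96), and windows of 300 kb or more had a median of 0.87 there. Its bin at 303 kb went from 20.8 to 12.001, a ratio of 0.58 (0.32 to 0.99). Within rod-like cells 8 genes had at least 50 fragments, and 1 of them, Onecut2, was past 1.5 in the higher direction, where 9.11% of windows were, against 3.94% lower. It went from 30.5 to 65.8, a ratio of 2.16 (1.29 to 3.81), on 18 and 88 fragments. Its bin at 5.75 kb went from 6.77 to 22.4 in these cells, on 4 and 30 fragments. Crx (1.046), Neurod1 (1.14) and Otx2 (1.15) had intervals that held 1 in rod-like cells.

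Within bipolar-like cells none of the 10 was past 1.5, where 3.49% of windows were higher and 3.29% lower. Otx2 was at a ratio of 1.37 (1.13 to 1.66), Neurod1 at 1.35 (1.13 to 1.60) and Onecut2 at 1.29 (1.06 to 1.58). Among all windows in these cells 18.2% had an interval above 1. Different clusters filled this class, with 515 of 656 control cells in cluster 0, and 118 and 96 of 264 Ikzf1/4 cells in clusters 3 and 8. The Otx2 ratio had an interval that held 1 in cluster 0, at 0.57 (0.28 to 1.05) on 145 and 11 fragments, and in cluster 8, at 1.29 (0.85 to 2.00). Neurod1 held 1 in all 3 clusters, at 1.16 (0.73 to 1.78), 1.36 (0.97 to 1.91) and 0.97 (0.68 to 1.41) in clusters 0, 3 and 8. Onecut2 held 1 in clusters 0 and 8, at 1.05 (0.62 to 1.68) and 1.18 (0.77 to 1.87). Within cluster 3 Onecut2 was at 1.64 (1.07 to 2.57) and Otx2 at 1.63 (1.10 to 2.48), where 11.3% of windows were past 1.5 in the higher direction and 3.62% in the lower. Muller glia-like cells were compared by cluster, since Gfap led one of them. Thrb went from 173 to 259 in cluster 1, a ratio of 1.497 (1.253 to 1.78), and 7.89% of windows there were past 1.5 in the higher direction and 7.06% in the lower. The Crx bin 1.74 kb before the start went from 33.1 to 18.6 in cone-like cells, a ratio of 0.56 (0.36 to 0.86), and from 22.3 to 14.4 in cluster 1, a ratio of 0.65 (0.29 to 1.27). In bipolar-like cells it was at 1.13 (0.82 to 1.56). Over the 63 pairs of a bin and a class or cluster with at least 30 fragments, 59 intervals held 1, and no share over all bins of the genome was computed. The 2 above 1 were the Neurod1 bin at 1.249 kb in bipolar-like cells, at 1.72 (1.19 to 2.49), and the Onecut2 bin at 5.75 kb in rod-like cells, and the 2 below were the Crx and Thrb bins in cone-like cells. Over the 61 pairs of a gene and a cluster with at least 50 fragments, 3 ratios were past 1.5 higher and 5 lower, where 10.8% and 8.58% of 94275 pairs of a window and a cluster were.

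The photoreceptor co-regulators, which act beside these factors, had 5 of 12 windows past 1.5 in the higher direction and 0 lower, with a median ratio of 1.38. Over all windows 2.84% were past it higher and 5.85% lower, which is the background for the lists that follow too. Nrl, the rod-determining factor, was highest at 2.79 and Samd11 next at 2.06, and Nr1d1 was lowest at 0.99, with Meis1 at 1.07. Within cone-like cells 11 co-regulators had at least 50 fragments and a median of 1.06, against 1.046 over all windows. Within rod-like cells 10 did, with a median of 1.12, against 1.06 over all windows. Of 20 target genes of Otx2 and Crx, 9 were past 1.5 higher over the whole library and 1 lower, with a median of 1.49. Rcvrn, the calcium sensor recoverin, was at 2.04, and the cone genes Opn1sw (0.57) and Pde6h (0.77) were lowest. Within cone-like cells all 20 targets had a median of 0.79, against 1.046 over all windows. Within rod-like cells 14 targets had at least 50 fragments and a median of 1.04, against 1.06 over all windows. The 15 progenitor and upstream regulators had a median of 0.91 over the whole library. Within cone-like cells 11 of them had at least 50 fragments and a median of 1.26, and within rod-like cells 5 did, with a median of 1.15. Over the whole library Olig2 was at 2.32 (1.49 to 3.63) and Neurog2 at 0.73 (0.58 to 0.92). Of 14 regulators of other fates, 2 were past it higher, Prdm8 (1.66) and Isl1 (1.58), and 0 lower. The lowest were Bhlhe22 (0.75) and Vsx1 (0.79).

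In fibroblasts, Onecut2, Sall3 and Rorb were higher in RNA when Ikzf1 and Ikzf4 were added, and the other 5 genes with an adjusted p did not pass the threshold of 0.05. In the authors' deposited table the added factors themselves were higher by log2 fold changes of 7.76 (Ikzf1) and 8.54 (Ikzf4). Onecut2 was higher by 1.33 (SE 0.10, DESeq2 adjusted p 3.04e-37) at a mean normalised count of 842 in the authors' deposited table. Sall3 was higher by 1.35 (SE 0.22, DESeq2 adjusted p 1.26e-08) at a low mean of 19.8 in that authors' deposited table. Rorb was higher by 0.46 (SE 0.12, DESeq2 adjusted p 0.000893) at a mean of 655 in the authors' deposited table. So 3 of 8 were higher and 0 lower in the authors' deposited table, where 15.3% of 16757 genes were higher and 15.4% lower (30.6% either). Nothing in the labels says that the libraries came from separate cultures, so these p-values measure the spread between the 3 libraries of each group.

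The head of the photoreceptor program was at or near the floor in fibroblasts. Otx2 had a mean of 0 and Neurod1 of 2.61 with no adjusted p in the authors' deposited table. Crx was at 0.02 (SE 0.17, DESeq2 adjusted p 0.942) on a mean of 5.86, and Rxrg at 0.25 (SE 0.17, DESeq2 adjusted p 0.281) on a mean of 4.92 in the authors' deposited table. At such low means a small SE does not show that a gene was unchanged. Thrb (0.12, SE 0.19), Onecut1 (0.05, SE 0.19) and Prdm1 (-0.02, SE 0.21) did not pass there either, with DESeq2 adjusted p of 0.690, 0.894 and 0.966 in the authors' deposited table. Their means were 138, 7.75 and 48.7, so that Thrb and Prdm1 stood above Sall3 in mean count. For the other lists, the share over all genes in the authors' deposited table is again 15.3% higher and 15.4% lower. Of the other lists in the authors' deposited table, 0 of 7 co-regulators with an adjusted p passed. Among 13 targets with an adjusted p in the authors' deposited table, 1 passed, Opn1sw, lower by a log2 fold change of -0.50. Among 7 progenitor regulators with an adjusted p, of 15 in the authors' deposited table, 3 were higher, Neurog2, Notch1 and Pax6 (0.69). Among 10 regulators of other fates with an adjusted p, of 14 in the authors' deposited table, 4 were higher, led by Isl1 (2.21), and 1, Ebf1, was lower (-0.95).

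**Figure D5:**
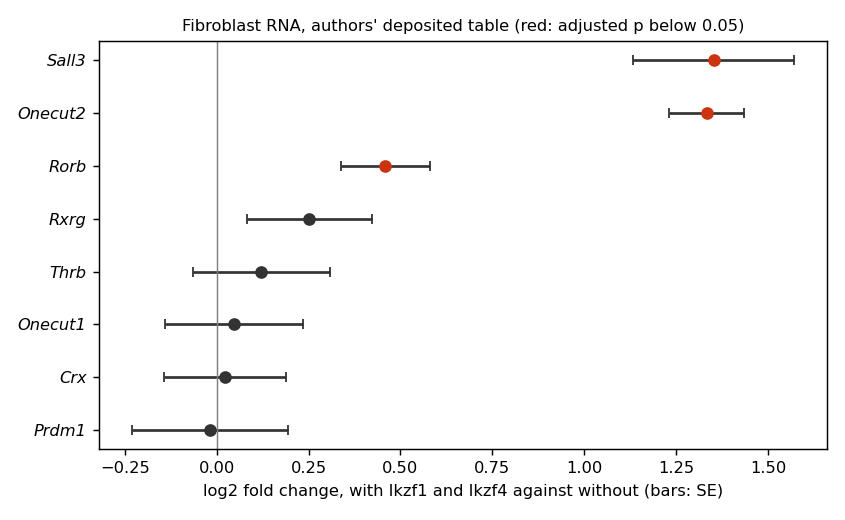
Log2 fold changes (points) and standard errors (bars) of the 8 genes with an adjusted p in the authors' deposited table for fibroblasts with against without Ikzf1 and Ikzf4. Red points passed the adjusted p of 0.05: Sall3 at 1.35, Onecut2 at 1.33 and Rorb at 0.46.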

How the data were processed

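The 10 genes and the lists of other genes and markers were chosen with earlier results of these data known. Per the file headers, the deposited fragment files came from cellranger-arc 2.0.1 on an mm10 reference and give each unique fragment with its counts of read pairs. Here fragments (not read pairs) overlapping a window were counted once for each barcode of 3000 to 90000 fragments. Cells for the classes also needed 4 times or more enrichment at gene ends and lay below the 99th percentile of fragments, and no doublet caller was run. They were clustered with leidenalg 0.10.2 at a resolution of 0.8 on 17706 windows. Intervals are exact at 95% (scipy 1.17.1; Poisson for levels, conditional binomial for ratios), except an approximate log-scale interval for ratios at control class shares. The limit for 0 fragments is 3 fragments of the class total. Named genes were the 10 genes, the 3 windows most like each of 6 of them, and the 2 highest and 2 lowest of each list, of which some are not reported here. The ratio intervals were checked on counts simulated with Poisson error alone, which cannot show the spread between libraries.

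The authors' deposited table, made with DESeq2 per the submitters' processing notes, gives a mean signal of normalised counts, a log2 fold change, its standard error and a Wald statistic as scores, and p-values and adjusted p-values. Shrinkage of the fold changes was not given in the sources used here and was not tested. Standard errors were small even at very low means, such as 0.049 for Pou4f2 at a mean of 0.353. A small standard error at a low mean is thus not a tight estimate of no change. Transcript estimates, fibroblast peak lists and other samples were not used here.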

Additional observations from a re-analysis of the deposited data

Results flagged for a closer look

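Thrb had intervals on both sides of 1 when the Ikzf1/4 library was set against control. Its ratio was 1.497 (1.253 to 1.78) in cluster 1 and 1.37 (1.02 to 1.86) in cluster 5, and 0.858 (0.765 to 0.962) in cone-like cells. Windows of 300 kb or more, such as that of Thrb, had a median of 0.872 in cone-like cells, with 37.1% of intervals below 1. In clusters 1 and 5, 10.4% and 14.0% of windows of that length had an interval above 1. All 10 Muller glia markers were high in both clusters, but Gfap, of the astrocyte list, led cluster 5. Rorb was at 1.36 (1.052 to 1.74) in cluster 0, which is bipolar-like, and at 0.709 (0.531 to 0.945) in cluster 5. In the unnamed cluster 10 Rorb was at 0.403 (0.126 to 0.991), on 62 and 5 fragments. These were picked because intervals on both sides of 1 occurred for one gene, and the differences between clusters were not tested. Over 61 pairs of a gene and a cluster with at least 50 fragments, 9 intervals lay above 1 and 3 below, where 9.54% and 4.60% of the pairs over all windows did.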

How the results depend on the processing

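By library, 2 genes past 1.5 became 4 at the lower fold threshold that was planned, and 0 were lower under any setting run. The count was 3 under 5 settings, in which Crx, at 1.47, also passed: starts with 1 kb on each side (1.87), barcodes with at least 10000 or at least 1000 fragments, cluster 8 left out (1.56, against 1.49 over all clustered cells) and cells with 5000 to 15000 fragments. The last pair was chosen after seeing the data. For the gene body alone the count stayed at 2, but Crx (1.93) passed and Otx2 (1.49) did not. Leaving out cluster 8 put Prdm1 at 1.35, against 1.22 over all clustered cells and 1.14 over all barcodes in range. Among cone-like and rod-like pairs of gene and class, the 1 past 1.5 became 2 for the gene body alone, 0 for starts, 2 for fragments under 120 bp and 2 for cells with at least 10000 fragments. At starts, 5 of 8 genes kept their highest class. With a log2 fold change over 1 also required, 2 fibroblast calls remained, Onecut2 and Sall3. The causes were not tested. Rare bins rest on few fragments, and with 1 library a condition the spread between animals is unknown. No paired analysis was possible on the fibroblast values used here, because the authors' table gives no values for single libraries. The transcript estimates were left unused, since transcripts were not paired with genes. So fits without each replicate, edgeR and DESeq2 fits and the replicate block were not run, although the libraries carry replicate numbers.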

Other observations

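The bipolar-like clusters held the libraries unequally, since control cells were 515 of 565 in cluster 0, 117 of 235 in cluster 3 and 24 of 120 in cluster 8, so their levels are given for control cells alone. Prdm1 was at 34.0 (27.9 to 41.0) in cluster 0, 43.0 (29.8 to 60.1) in cluster 3 and 74.5 (53.9 to 100.3) in cluster 8. Thrb was at 133 (120.3 to 146) in cluster 0, 102 (81.3 to 127) in cluster 3 and 197 (163 to 237) in cluster 8. Otx2 was at 45.6, 44.3 and 50.2 in these clusters, with intervals that overlapped. Neurod1 was at 50.6 (43.1 to 59.1), 65.8 (49.1 to 86.2) and 71.0 (51.0 to 96.4), also overlapping. Cluster 8 had the highest median depth of the clusters, at 16467.5 fragments, and doublets were not called. Crx was at 26.8 (20.9 to 33.8) in cluster 1 of the Muller glia-like cells and at 9.83 (3.95 to 20.3) in cluster 6, in control cells.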
